A study of Mus musculus with 6 samples.

Results

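DNA replication genes were followed in mouse liver after carbon tetrachloride (CCl4), a solvent that injures hepatocytes and is used to model liver damage and regrowth. The set holds 34 genes chosen by symbol for their part in copying DNA, with earlier results of these data known. All 34 were found among the 55802 rows of the gene count table. Livers were sampled from C57BL/6 mice with a WT genotype, and 3 RNA libraries were made after oil (control) and 3 after CCl4. Both groups share the strain and the genotype. The labels used here state no dose, route, number of treatments, time of collection, age or sex. They also do not say that replicates are different mice, so each p-value reflects variation among these libraries that may be technical.

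Replication begins when the origin recognition complex, Cdc6 and Cdt1 load the Mcm2 to Mcm7 ring onto DNA, a step called licensing. In S phase, Cdc45 and the GINS complex join the ring to form the active helicase, with Mcm10 needed for its activation. Primase with polymerase alpha then starts each new strand, and polymerases epsilon and delta extend it with the sliding clamp Pcna. Most hepatocytes of an adult liver are out of the cell cycle and re-enter it after injury. Many of these genes are textbook targets of E2F, the transcription factor family held in check by the retinoblastoma protein.

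The genome sequence upstream of a few members is shown because these genes share one protein complex or one textbook regulator and yet differed in these livers. RefSeq promoter windows (build GRCm38.p6, from 250 bases before to 50 bases after an annotated start) were matched for 29 of the 34 members, with 34 windows in all. The members with no match were Mcm4, Gins1, Gins2, Prim2 and Pole. The stretches below are the 250 bases upstream of the start of 5 members, read 5′ to 3′ on the gene's strand. Mcm7 and Uhrf1 each have another annotated start, whose window held no E2F match. For these genes the start with a match was the one printed. Capitals mark the E2F letters TTTCCCGC, TTTCGCGC, TTTGCCGC or TTTGGCGC on either strand, and a longer capital run holds overlapping matches on opposite strands.
Mcm6 (chr1:128359706-128359955, minus strand, higher in CCl4): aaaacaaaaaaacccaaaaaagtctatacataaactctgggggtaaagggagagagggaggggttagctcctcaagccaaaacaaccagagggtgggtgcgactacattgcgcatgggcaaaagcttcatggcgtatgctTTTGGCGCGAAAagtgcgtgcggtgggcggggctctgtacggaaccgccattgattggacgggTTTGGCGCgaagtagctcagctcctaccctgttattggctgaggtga
Mcm5 (chr8:75109259-75109508, plus strand, higher in CCl4): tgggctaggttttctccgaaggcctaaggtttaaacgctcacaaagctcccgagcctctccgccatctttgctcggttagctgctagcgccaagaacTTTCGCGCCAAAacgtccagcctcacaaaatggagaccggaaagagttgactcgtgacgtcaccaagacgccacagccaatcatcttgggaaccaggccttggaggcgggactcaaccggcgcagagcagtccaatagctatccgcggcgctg
Uhrf1 (chr17:56304063-56304312, plus strand, higher in CCl4): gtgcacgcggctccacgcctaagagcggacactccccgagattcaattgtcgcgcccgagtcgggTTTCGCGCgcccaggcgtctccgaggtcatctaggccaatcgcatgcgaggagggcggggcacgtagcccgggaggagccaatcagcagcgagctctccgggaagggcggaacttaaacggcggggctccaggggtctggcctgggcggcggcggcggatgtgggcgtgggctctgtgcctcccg
Mcm7 (chr5:138171884-138172133, minus strand, not called): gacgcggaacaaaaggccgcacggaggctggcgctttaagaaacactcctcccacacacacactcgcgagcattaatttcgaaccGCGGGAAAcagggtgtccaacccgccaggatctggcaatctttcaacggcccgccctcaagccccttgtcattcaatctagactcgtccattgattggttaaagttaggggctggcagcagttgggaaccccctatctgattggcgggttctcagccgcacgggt
Mcm10 (chr2:5012792-5013041, minus strand, lower in CCl4): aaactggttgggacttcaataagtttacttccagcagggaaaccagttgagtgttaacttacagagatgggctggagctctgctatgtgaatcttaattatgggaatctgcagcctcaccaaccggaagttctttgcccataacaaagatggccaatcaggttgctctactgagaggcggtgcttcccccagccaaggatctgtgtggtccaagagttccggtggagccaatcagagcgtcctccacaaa

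The upstream stretch of Mcm6 held 3 such matches, a pair of them overlapping, and that of Mcm5 held an overlapping pair. Mcm7, which was not called between the groups, also carried the letters, with 1 match in the printed stretch and 1 more after the start. Mcm10 had none in its window, but the window ends in TTTGGCG, so a match running past its last base could not be seen. Over all matched members, 14 of 29 (48.3%) had at least 1 match in a window, against 2.6% of all 27025 genes with a window and 4.42% of the genes tested for expression. Members called higher in CCl4 carried the letters in 9 of 18 cases. The remaining matched members carried them in 5 of 11, and these are similar shares of small numbers. Called higher with no match were Mcm2, Prim1, Pcna, Rfc4, Rpa2, Rrm1, Rrm2, Tyms and Tk1. A match is a description of letters and not of bound protein, and no binding was measured here.

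**Figure D1:**
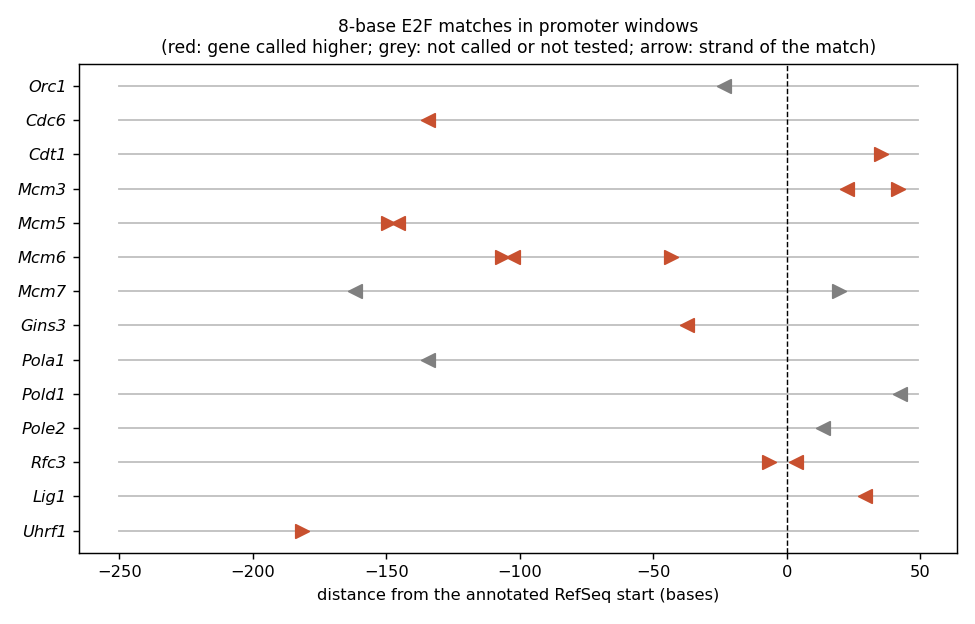
Position of each 8-base E2F match (arrow, pointing along the strand of the match) from 250 bases before to 50 bases after the annotated start, for the 14 members that hold one; the horizontal axis is distance from the start in bases. Red genes were called higher in CCl4 and grey genes were not called or not tested. Matches of both colours lie on both sides of the start.

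Other promoter letters were searched in the same way. The CCAAT box (CCAAT, either strand) was in the windows of 18 of 29 members (62.1%), beside 42.6% of the genes tested, and the GC box (GGGCGG, either strand) in 72.4% beside 65.1%. TTTGAA, the core of the cell cycle homology region found at many mitotic genes, was in 4 of 29 members (13.8%), beside 15% of the genes tested. A list of mitotic genes drawn up later had the reverse, with TTTGAA in 17 of 25 genes (68.0%) and the E2F letters in 1 of 25 (4.0%). The median GC content of the member windows was 57.5%, close to the 60.0% of the genes tested.

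The libraries held 18929972 to 20042731 counts each. Of the 15579 genes that passed the filter on low counts, 41.3% differed between the groups in edgeR's quasi-likelihood test at a Benjamini-Hochberg adjusted p under 0.05, the threshold behind every call given here, and 21.2% were higher in CCl4 and 20.1% lower. Scaling changed that split: with upper quartile scaling 4103 genes were called higher and 2177 lower, and with library size alone 4824 and 1676, against 3303 and 3124 with TMM. Over all genes the median log2 fold change was 0.15 with library size alone and 0.0006 with TMM, and that of the members 0.84 and 0.69. Hepatocyte markers marked every library as liver, with a summed level of 94160 to 105300 CPM, the count relative to the TMM-scaled library size.

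Most tested members of this list were higher in CCl4 livers, and the others were not called or were lower. On a separate list of other replication machinery, given below, 14 of 37 tested genes were higher. Of the 32 members tested, 21 were higher (65.6%, against 21.2% of all genes tested), 2 were lower (Mcm10 and Pola2, against 20.1%) and 9 were not called. At least a 2-fold rise was called for 13 of them, where 10.1% of all genes tested reached that mark. All 3 CCl4 libraries lay above all 3 controls in 22 tested members, a pattern seen in 27.6% of all genes tested, and below them in 2, a pattern seen in 26.4%. The median log2 fold change was 0.69, with a range from -1.08 to 2.29. Gins2, Uhrf1, Mcm6 and Rrm2 had the highest values.

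Low counts limited some members. Orc1 and Fen1 did not pass the filter and were not tested with the rest. Cdc6, Gins2 and Gins3 passed it only through the CCl4 libraries, so that for these 3 a difference was built into passing. Mean CPM in controls, which also grows with gene length, ran from 0.231 (Orc1) to 65.2 (Mcm10). Of the 7 members above 10 CPM in controls (Mcm7, Mcm10, Pola2, Pcna, Rfc5, Rrm1 and Tk1), 3 were called higher and only Rrm1 by at least 2-fold. Of the other 25 tested, 18 were called higher and 12 by at least 2-fold. This comparison of levels shares the control values with the fold changes and is given as a description.

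**Figure D2:**
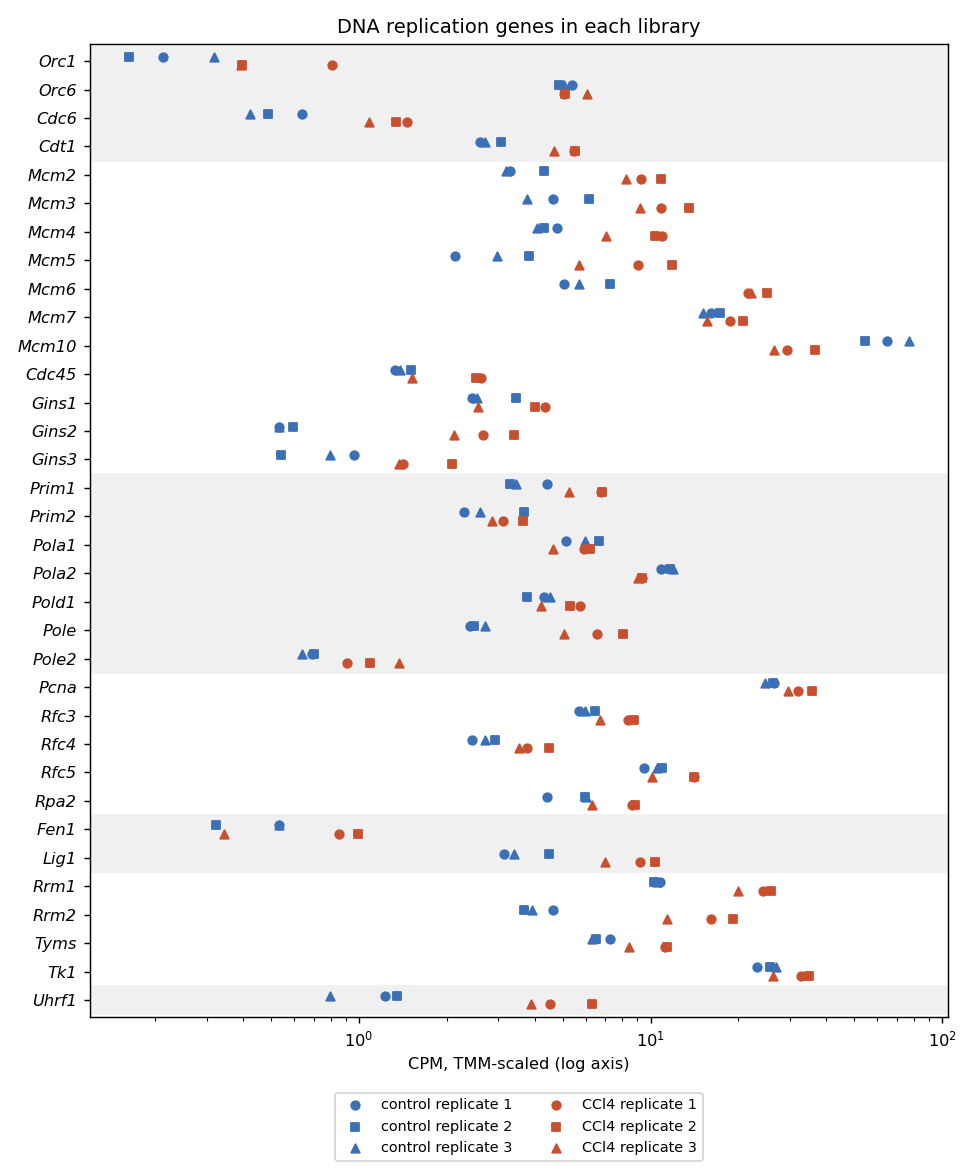
Level of each of the 34 members in each of the 6 libraries, in CPM on a log axis; blue points are controls, red points CCl4, the marker shape gives the replicate and grey bands group the genes by role. Red points lie to the right of blue points for most genes, to the left for Mcm10 and Pola2, and the CCl4 replicate 3 triangle is the leftmost red point in 31 of 34 genes.

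**Figure D3:**
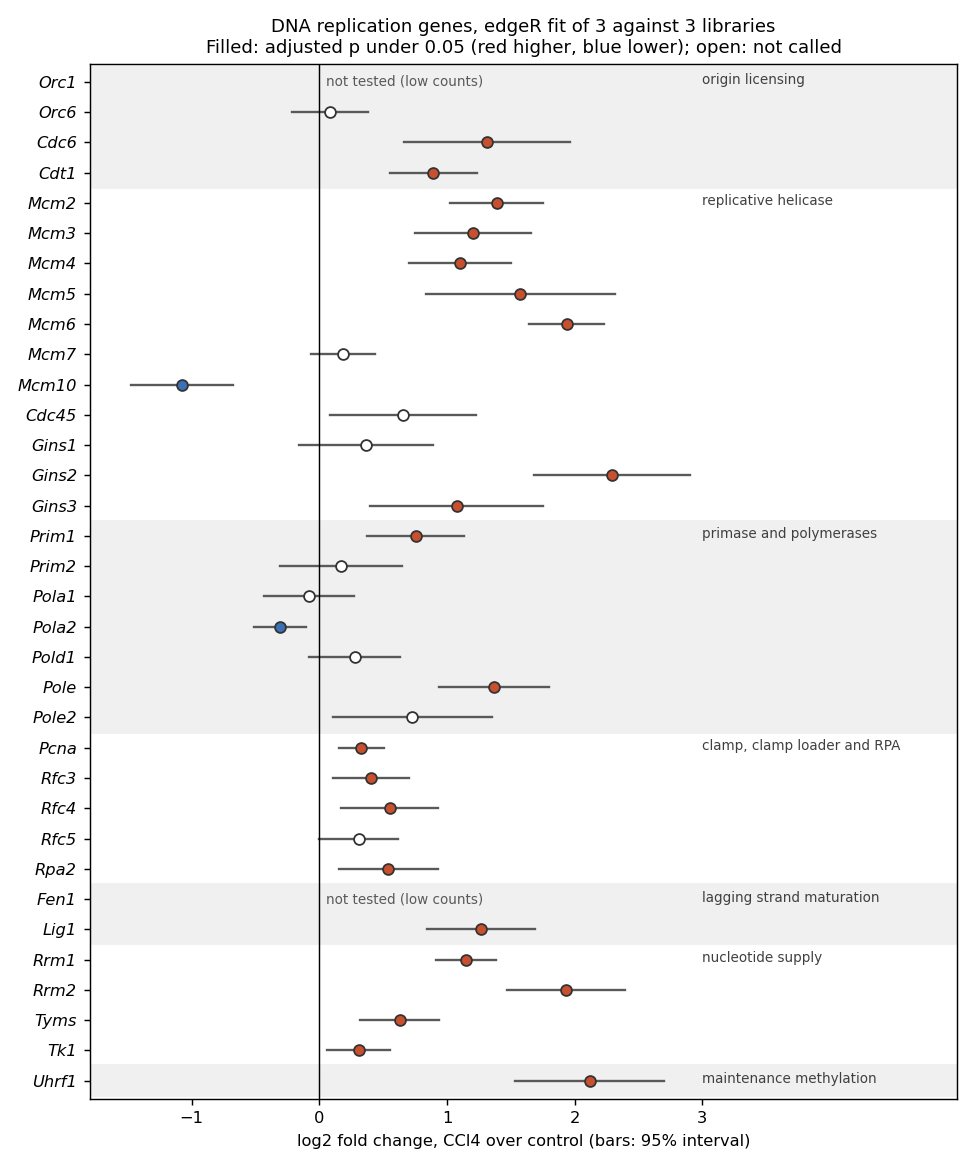
Log2 fold change of each tested member, CCl4 over control, with its 95% interval from the edgeR fit of 3 against 3 libraries. Filled points are called (21 red, higher; 2 blue, lower), open points are the 9 not called, and Orc1 and Fen1 have no point. The values run from -1.08 for Mcm10 to 2.29 for Gins2.

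Among the licensing genes, Cdt1 and Cdc6 rose and Orc6 did not pass the test. Cdt1, which brings the Mcm2 to Mcm7 ring to origins, was at 2.61, 3.08 and 2.70 CPM in control replicates 1 to 3 and at 5.44, 5.49 and 4.67 CPM in CCl4 replicates 1 to 3. The groups did not overlap, and the log2 fold change was 0.89 ± 0.15 (SE, n = 3 a group, adjusted p = 0.00139). Cdc6, the ATPase that loads the ring together with Cdt1, was at 0.639, 0.486 and 0.424 CPM in controls and 1.46, 1.34 and 1.08 CPM in CCl4. Its log2 fold change was 1.31 ± 0.29 (adjusted p = 0.00543).

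The origin recognition complex itself, whose Orc1 and Orc6 are on the member list, had no subunit called higher. Orc6, its smallest subunit, was at 5.38, 4.86 and 5.04 CPM in controls and 5.04, 5.09 and 6.04 CPM in CCl4. These values overlapped, and the log2 fold change was 0.08 ± 0.13 (95% interval of the fold 0.861 to 1.30, adjusted p = 0.651). Orc1, its ATPase subunit, had 4, 3 and 6 counts in controls and 16, 8 and 8 in CCl4. Every CCl4 library was higher, but in a fit without the filter on low counts the log2 fold change of 1.16 ± 0.55 did not pass (adjusted p = 0.13). Orc2, Orc3 and Orc4, which are not members, were not called (log2 fold changes -0.11, -0.09 and 0.04), and Orc5 fell, as given below.

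In the Mcm2 to Mcm7 ring, 5 of the 6 subunits rose and Mcm7 did not pass the test. Summed over the 6 genes, the level was 38.01 ± 4.56 CPM in controls and 80.31 ± 12.3 CPM in CCl4 (SD, n = 3 a group), a ratio of 2.11. Mcm6 had the highest fold of the ring, with 5.06, 7.24 and 5.67 CPM in controls and 21.7, 25.1 and 22.1 CPM in CCl4. The groups were far apart and the log2 fold change was 1.94 ± 0.13 (adjusted p = 9.65e-06). Mcm5 followed at 1.57 ± 0.32, with 2.13, 3.84 and 2.97 CPM in controls and 9.07, 11.9 and 5.70 CPM in CCl4, where replicate 3 was well below the other CCl4 libraries. Mcm2, Mcm3 and Mcm4 rose by log2 values of 1.39, 1.21 and 1.10, and none of them overlapped between groups.

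Mcm7 was at 16.1, 17.3 and 15.1 CPM in controls and 18.8, 20.8 and 15.6 CPM in CCl4. The groups overlapped through CCl4 replicate 3, and the log2 fold change was 0.18 ± 0.11 (95% interval of the fold 0.956 to 1.35, adjusted p = 0.215). Without CCl4 replicate 3 it was called at 0.29 (adjusted p = 0.0295), and with library size alone at 0.33 (adjusted p = 0.0354). Per kilobase of exon, with the exons of all annotated transcripts merged, Mcm7 had the highest value of the ring in controls. It stood at 3.66 ± 0.253 CPM per kb, while Mcm2 to Mcm6 lay between 0.518 and 1.29. The merged length can exceed that of the transcripts present, so ranks between genes on this scale are approximate. In CCl4 livers Mcm6 reached 4.92 ± 0.405 CPM per kb and Mcm7 4.16 ± 0.587. The 6 ring genes spanned 0.518 to 3.66 CPM per kb in controls and 1.36 to 4.92 in CCl4. Exons of Mcm7 overlap those of Ap4m1 and Cops6 on the opposite strand and hold Mir25 and Mir93, and no source used here gives the strand setting of the counting. In all, 12 members share exon bases with another gene: Mcm7, Orc1, Orc6, Cdc45, Gins2, Pole, Pole2, Rfc4, Rfc5, Fen1, Lig1 and Tk1. Of the 22 members without such overlap, 16 were higher and 2 lower, against 21.2% and 20.1% of all genes tested.

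Mcm10 went the other way. This gene, whose protein binds the ring and DNA when the helicase is activated, was at 64.5, 54.2 and 76.7 CPM in controls and at 29.3, 36.7 and 26.6 CPM in CCl4. All CCl4 libraries lay below all controls, and the log2 value fell by 1.08 ± 0.17 (adjusted p = 0.00267). The mean in CCl4 was 0.474 of that in controls (95% interval 0.360 to 0.625). Per kilobase of exon, Mcm10 stood at 8.47 ± 1.46 CPM in controls, below Pcna only, and at 4.02 ± 0.684 in CCl4. Its exons overlap no other gene in the annotation used here, but the annotation behind the counts is not given. Counts per gene do not show which transcript of Mcm10 these reads came from. The call of Mcm10 held under all 16 other settings tried. Because of its level it weighed on any total: the summed level of the 34 members was 1.32 times higher in CCl4 with Mcm10 and 1.62 times higher without it.

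**Figure D4:**
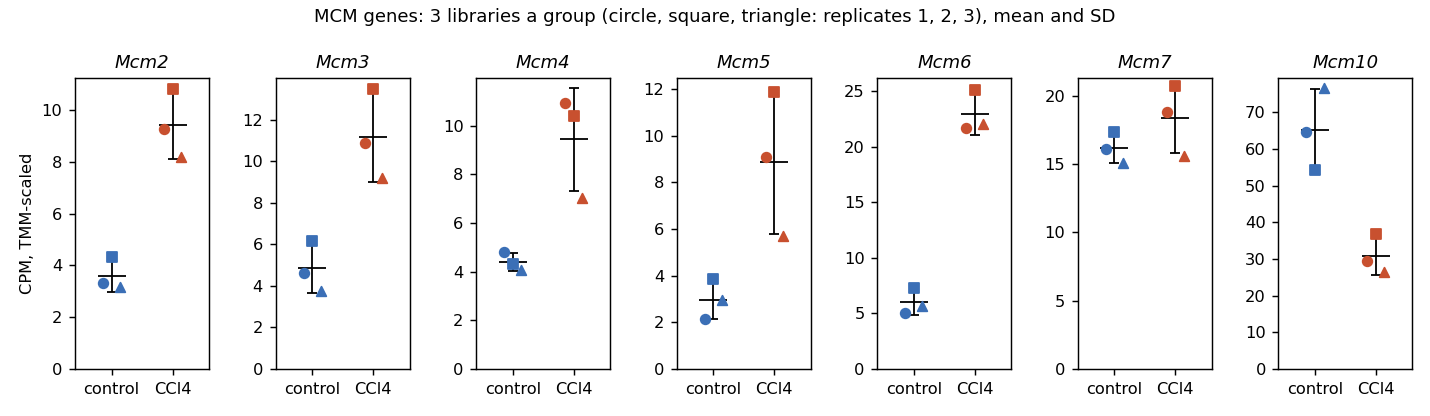
Level of Mcm2 to Mcm7 and Mcm10 in CPM, with a separate vertical axis from 0 for each gene; blue markers are the 3 controls, red markers the 3 CCl4 libraries, marker shapes the replicates, and black bars the mean and SD. Mcm2 to Mcm6 lie higher in CCl4 without overlap, Mcm7 overlaps, and Mcm10 lies lower without overlap.

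The partners that turn the ring into a moving helicase varied. Gins2 had the highest fold of all members, from 0.532, 0.594 and 0.530 CPM in controls to 2.67, 3.41 and 2.11 CPM in CCl4 (log2 fold change 2.29 ± 0.27, adjusted p = 1.94e-04). Of its 4097 exon bases, 2758 overlap Gse1 on the opposite strand, so without strand the reads of both genes cannot be told apart. Gins3 rose by 1.08 ± 0.30, a call lost when control replicate 2, control replicate 3 or CCl4 replicate 2 was left out (adjusted p = 0.0629, 0.0505 and 0.0752).

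Gins1, of the same GINS complex, was at 2.45, 3.46 and 2.54 CPM in controls and 4.33, 4.01 and 2.55 CPM in CCl4, which overlapped (0.37 ± 0.24, adjusted p = 0.244). Gins4, the remaining GINS subunit and not a member, had mean levels of 11.3 CPM in controls and 10.8 CPM in CCl4. It was not called (-0.07 ± 0.09, adjusted p = 0.593). Cdc45, which binds GINS and the ring, was at 1.33, 1.51 and 1.38 CPM in controls and 2.62, 2.52 and 1.52 CPM in CCl4. CCl4 replicate 3 lay just above the controls and the other CCl4 libraries well above, and the log2 fold change of 0.66 ± 0.26 did not pass (adjusted p = 0.066). Without CCl4 replicate 3, both Gins1 and Cdc45 were called higher. Cdc45 was also called with upper quartile scaling or library size alone (adjusted p = 0.0435 and 0.0284).

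Of the 7 primase and polymerase genes, Pole and Prim1 rose, Pola2 fell and 4 were not called. Pole, the catalytic subunit of the leading strand polymerase epsilon, was at 2.40, 2.49 and 2.70 CPM in controls and 6.55, 8.01 and 5.06 CPM in CCl4 (1.37 ± 0.19, adjusted p = 4.64e-04). Its partner subunit Pole2 was at 0.692, 0.702 and 0.636 CPM in controls and 0.907, 1.09 and 1.38 CPM in CCl4. The groups did not overlap, and CCl4 replicate 3 was the highest library, unlike for nearly all other members. At these counts the log2 fold change of 0.73 ± 0.28 did not pass (adjusted p = 0.0615). With upper quartile scaling or library size alone, Pole2 was called higher (adjusted p = 0.0419 and 0.0335).

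Primase and polymerase alpha work as 1 complex of 4 subunits. Prim1, its catalytic primase subunit, was at 4.42, 3.30 and 3.45 CPM in controls and 6.75, 6.83 and 5.26 CPM in CCl4 (0.75 ± 0.17, adjusted p = 0.00582). Prim2, the large primase subunit, overlapped between groups, at 2.29, 3.67 and 2.60 CPM in controls and 3.12, 3.66 and 2.85 CPM in CCl4 (0.17 ± 0.21, adjusted p = 0.553). Pola1, the catalytic polymerase subunit, was at 5.11, 6.65 and 5.94 CPM in controls and 5.90, 6.18 and 4.62 CPM in CCl4 (-0.08 ± 0.16, 95% interval of the fold 0.740 to 1.20). Pola2, its accessory subunit, was at 10.9, 11.6 and 11.9 CPM in controls and 9.37, 9.35 and 9.04 CPM in CCl4. All CCl4 libraries were below all controls, but the fall of Pola2 was small, by 0.31 ± 0.09 (adjusted p = 0.0215), and its call was lost in 7 of 16 other settings, among them DESeq2 (adjusted p = 0.0968) and the fits without control replicate 3, CCl4 replicate 1 or CCl4 replicate 2.

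Pold1, the catalytic subunit of the lagging strand polymerase delta, was at 4.31, 3.78 and 4.51 CPM in controls and 5.75, 5.29 and 4.23 CPM in CCl4. The groups overlapped through CCl4 replicate 3, and the log2 fold change was 0.28 ± 0.16 (adjusted p = 0.196).

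Of the sliding clamp and its helpers, 4 of 5 genes rose, each by less than 1.5-fold, and Rfc5 did not pass the test. Pcna, which tethers the polymerases to DNA, was at 26.6, 26.4 and 24.7 CPM in controls and 32.0, 35.8 and 29.7 CPM in CCl4. Per kilobase of merged exon it had the highest value of the members in both groups (10.8 ± 0.426 and 13.5 ± 1.28 CPM per kb). Its rise was 0.33 ± 0.08 (fold 1.26, 95% interval 1.11 to 1.42, adjusted p = 0.00849). Of the clamp loader subunits, Rfc4 was at 2.45, 2.92 and 2.70 CPM in controls and 3.78, 4.50 and 3.54 CPM in CCl4 (0.55 ± 0.17, adjusted p = 0.0266). Rfc3 rose by 0.40 ± 0.13. Rfc5 was at 9.53, 10.9 and 10.5 CPM in controls and 14.1, 14.1 and 10.1 CPM in CCl4, where replicate 3 sat among the controls (0.31 ± 0.14, adjusted p = 0.101). Upper quartile scaling or library size alone gave a call for Rfc5 (adjusted p = 0.0448 and 0.02). Rpa2, a subunit of the protein that coats single-stranded DNA, rose by 0.54 ± 0.17. These small rises were the less secure calls. Without 1 library, the call of Rfc3 was lost for each library but CCl4 replicate 3 (adjusted p up to 0.129), and those of Rfc4 and Rpa2 for control replicates 1 and 3 and CCl4 replicates 1 and 2 (up to 0.105 and 0.119).

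Of the 2 genes that finish the lagging strand, Lig1, the ligase that joins Okazaki fragments, was at 3.14, 4.48 and 3.39 CPM in controls and 9.22, 10.3 and 6.98 CPM in CCl4. These groups were well apart (1.27 ± 0.19, adjusted p = 6.30e-04). Fen1, the flap nuclease that trims those fragments, had 10, 6 and 10 counts in controls and 17, 20 and 7 in CCl4, which overlapped. Most of its annotated exon bases (2039 of 2422) are shared with Gm10143 and Tmem258 on the opposite strand, so without strand its reads cannot be told apart from theirs.

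All 4 nucleotide supply genes rose, by unequal amounts. Rrm2, the small subunit of ribonucleotide reductase that is made in S phase, was at 4.63, 3.67 and 3.92 CPM in controls and 16.2, 19.2 and 11.4 CPM in CCl4 (1.93 ± 0.20, adjusted p = 1.80e-04). Rrm1, the large subunit, was at 10.8, 10.3 and 10.5 CPM in controls and 24.3, 25.9 and 19.9 CPM in CCl4 (1.15 ± 0.11, adjusted p = 4.75e-05). Neither gene overlapped between groups.

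Tyms, which makes thymidylate, was at 7.24, 6.48 and 6.31 CPM in controls and 11.2, 11.4 and 8.40 CPM in CCl4 (0.63 ± 0.14, adjusted p = 0.00534). Tk1, the cytosolic thymidine kinase, was at 23.2, 25.8 and 26.9 CPM in controls and 32.9, 34.8 and 26.2 CPM in CCl4. For Tk1 the groups overlapped, and its call (0.31 ± 0.11, adjusted p = 0.0479) had the highest adjusted p of the 21 and was lost in 9 of 16 other settings, among them leaving out any 1 library but CCl4 replicate 3 (adjusted p up to 0.166).

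Uhrf1, which brings the maintenance methyltransferase Dnmt1 to newly copied DNA, was at 1.22, 1.35 and 0.795 CPM in controls and 4.54, 6.28 and 3.88 CPM in CCl4. The groups did not overlap, and the log2 fold change was 2.12 ± 0.26 (fold 4.35, 95% interval 2.90 to 6.51, adjusted p = 2.30e-04).

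Ratios of partner genes within a library do not depend on scaling, and 10 were compared between the groups by an exact two-sided permutation test over the 6 libraries. With 3 against 3 the smallest p this test can give is 0.1, and 7 ratios reached it (Benjamini-Hochberg adjusted p = 0.143), so none could pass the threshold. The log2 ratio of Rrm2 to Rrm1 was -1.38 ± 0.141 in controls and -0.61 ± 0.189 in CCl4 (SD, n = 3 a group), without overlap. Rrm2 to Rrm2b, the p53-regulated form of the small subunit, moved from -0.49 ± 0.147 to 1.65 ± 0.416. For Mcm2 to Mcm7 the log2 ratio went from -2.18 ± 0.154 to -0.96 ± 0.049, and for Uhrf1 to Dnmt1 from -3.95 ± 0.453 to -1.92 ± 0.329.

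Cdt1 set against geminin (Gmnn), the protein that inhibits it, had a log2 ratio higher by 0.56 in CCl4. Pcna set against Rfc1, the large subunit of its loader, was higher by 0.57, and Orc1 against Orc2 by 1.27. All 3 of these were without overlap. The ratios within primase (Prim1 to Prim2, difference 0.57, exact permutation p = 0.3), polymerase alpha (Pola1 to Pola2, 0.22, p = 0.2) and polymerase epsilon (Pole2 to Pole, -0.64, p = 0.2) overlapped between groups.

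**Figure D5:**
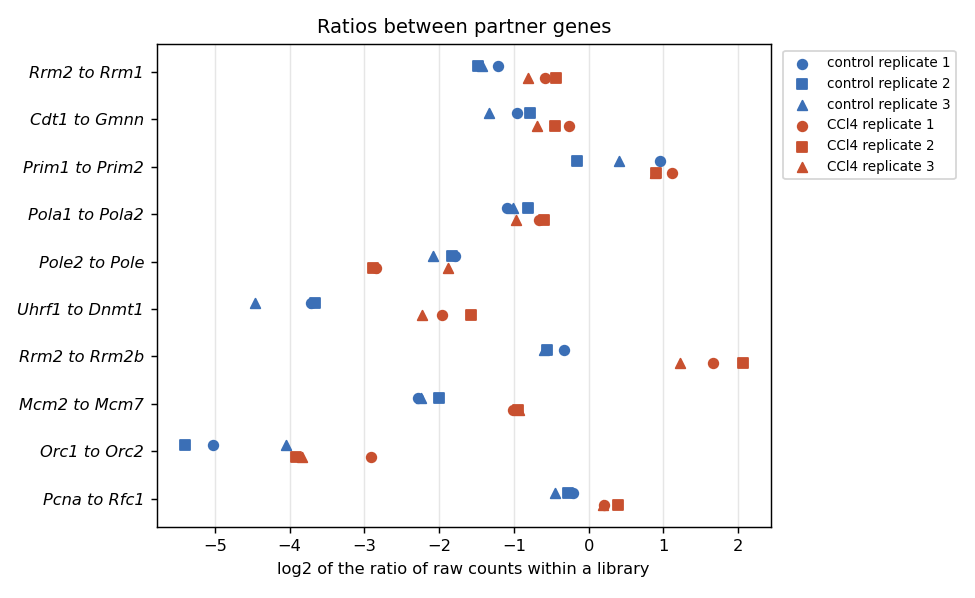
Log2 ratio of raw counts for 10 pairs of partner genes in each library; blue markers are controls, red markers CCl4, and marker shapes the replicates. The groups separate for 7 pairs, among them Rrm2 to Rrm2b and Uhrf1 to Dnmt1, and overlap for Prim1 to Prim2, Pola1 to Pola2 and Pole2 to Pole.

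CCl4 replicate 3 had the lowest level of the 3 CCl4 libraries in 31 of 34 members, and in 20 of the 21 called higher. Across all genes called higher, it was the lowest in 36.8%. Its level was a median 77.3% of the mean of CCl4 replicates 1 and 2 over the called members, against 102% over all genes called higher. The summed level of the 34 members was 338.2, 374.9 and 280.1 CPM in CCl4 replicates 1 to 3, and 244.1, 249.3 and 259.2 CPM in controls. Without CCl4 replicate 3, 25 members were called higher, with Mcm7, Cdc45, Gins1 and Rfc5 added. Leaving out any other library gave 16 to 18.

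Other genes of the pathway were counted in 4 lists, to be read against the 21.2% of all genes tested that were higher and the 20.1% that were lower. Of 37 tested genes in a list of other replication machinery, 14 rose and 4 fell, with a median log2 fold change of 0.22. The falls were 1 with upper quartile scaling or library size alone (beside 16 and 17 rises), and 2 without control replicate 1, 2 or 3 or CCl4 replicate 1. The median was 0.07 without control replicate 3. Top2a, the topoisomerase that untangles copied DNA, rose by 2.70 ± 0.30, Clspn, a fork checkpoint mediator, by 2.15 ± 0.57, and Ticrr, which helps to activate origins, by 2.05 ± 0.46. Clspn and Ticrr, like Cdc7 and Chtf18 of this list, passed the filter on low counts only through the CCl4 libraries. For these genes a difference was built into passing. Dna2 fell by 0.46 ± 0.08, Orc5 fell by 0.37 ± 0.11 and Rnaseh2c fell by 0.26 ± 0.09. Gmnn, at 5.71 ± 0.937 CPM in controls and 7.18 ± 0.543 CPM in CCl4, did not pass (0.33 ± 0.14, adjusted p = 0.0926) but was called with upper quartile scaling, library size alone or control replicate 3 left out. Leaving out 1 library ended the calls of Clspn (control replicates 2 and 3, CCl4 replicates 1 and 2; adjusted p up to 0.0769), Orc5 (each but CCl4 replicate 3; up to 0.0967) and Rnaseh2c (each but CCl4 replicate 2; up to 0.115).

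In nucleotide metabolism beyond the members, 8 of 21 tested genes rose and 2 fell, with a median of 0.22, against 21.2% and 20.1% of all genes tested. The rises were 5 without control replicate 3. Without CCl4 replicate 3 the falls were 5 and the median 0.10. The mitochondrial folate enzyme Mthfd2 rose by 0.80 ± 0.18, CTP synthase 2 (Ctps2) by 0.74 ± 0.11 and the nucleoside diphosphate kinase Nme1 by 0.38 ± 0.11. The mitochondrial enzymes Tk2 and Shmt2 fell by 0.35 ± 0.07 and by 0.30 ± 0.07, but Shmt2 did not pass when scaled by library size alone (adjusted p = 0.156). Leaving out 1 of controls 1 and 3 or CCl4 replicate 2 ended the call of Nme1 (adjusted p up to 0.0803). Rrm2b was not called (-0.24 ± 0.12, adjusted p = 0.155).

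Of 11 genes of chromatin assembly behind the fork, 4 rose and 2 fell, with a median of 0.10, and the share that fell was close to the 20.1% of all genes tested. The median was 0.05 without control replicate 1, 0.18 with upper quartile scaling and 0.24 with library size alone, where 7 rose and 1 fell. The histone chaperone Asf1b rose by 1.74 ± 0.39, the chromatin remodeler Hells by 1.39 ± 0.30 and Chaf1a, the large subunit of chromatin assembly factor 1, by 1.28 ± 0.29. Rbbp4, a histone-binding subunit of several complexes, fell by 0.55 ± 0.06 and Supt16 fell by 0.21 ± 0.06, a call lost without CCl4 replicate 2 (adjusted p = 0.0541). Supt16 is a subunit of the histone chaperone FACT. Dnmt1 was at 16.9 ± 0.802 CPM in controls and 18.2 ± 0.552 CPM in CCl4, which did not pass (0.11 ± 0.08, adjusted p = 0.287), beside the rise of its partner Uhrf1. With library size alone Dnmt1 was called higher (adjusted p = 0.0277).

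Genes of the E2F and RB switch into S phase gave 9 rises and 4 falls among 20, with a median of 0.36, against 21.2% and 20.1% of all genes tested. The share of falls was thus that of the background, and only 2 falls were called without control replicate 3, CCl4 replicate 1 or 2, or under upper quartile or library size scaling. The activators E2f1 and E2f2 rose by 0.89 ± 0.16 and 1.69 ± 0.18, and the repressive family member E2f6 fell by 0.39 ± 0.08. The other E2F genes on the list, E2f3, E2f4, E2f5, E2f7 and E2f8, were not called, with log2 fold changes from -0.13 to 0.48. The pocket proteins, which hold E2F in check, did not move together: Rb1 and Rbl2 fell by 0.41 ± 0.12 and by 0.53 ± 0.08, while Rbl1, named after its values were seen, rose by 1.59 ± 0.14 (adjusted p = 3.33e-05), from 3.37 ± 0.222 to 10.1 ± 1.27 CPM without overlap. Leaving out the third control, or 1 of CCl4 replicates 1 and 2, ended the call of Rb1 (adjusted p up to 0.0936). Ccna2, the cyclin of S phase and G2, rose by 3.49 ± 0.31, the Cdt1-degrading ligase subunit Dtl by 1.76 ± 0.26 and Ccne1 by 1.66 ± 0.25, whereas Ccne2 was not called (0.35 ± 0.20, adjusted p = 0.194).

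Mitotic genes, on the list drawn up later, had higher fold changes than the replication members. Of 28 tested, 27 rose, against 21.2% of all genes tested, and Pttg1 fell by 0.33 ± 0.10. Their median log2 fold change was 3.52. Several, among them Bub1, Aurkb and Ttk, passed the filter on low counts only through the CCl4 libraries, so a difference was built into passing. The mitotic genes were also lower in CCl4 replicate 3, at a median 51.6% of the other CCl4 libraries. The difference in fold between the lists was not tested, since the list was chosen after results were seen.

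Markers of some other cell types changed alongside. Their calls are to be read against the 21.2% of all genes tested that were higher and the 20.1% that were lower. All 11 macrophage and monocyte markers rose, and their summed level was 223.5 to 287.7 CPM in controls and 749.2 to 844.7 CPM in CCl4. Of the 8 stellate cell and myofibroblast markers 7 rose (244.6 to 294.5 CPM in controls, 892.1 to 992.1 CPM in CCl4), as did 4 of 5 tested biliary markers of 6 (50.41 to 94.01 CPM, then 252.1 to 335.2 CPM) and all 4 tested neutrophil markers of 7 (6.467 to 10.06 CPM, then 28 to 30.85 CPM), of which Ly6g and Mpo had no counts in at least 1 library. Itgam and Retnlg passed the filter on low counts only through the CCl4 libraries, so for them a difference was built into passing. Spp1 made up most of the biliary sum in every library. T, B and natural killer cell markers summed to 12.75 to 14.69 CPM in controls and 11.87 to 15.38 CPM in CCl4. Of 9 tested, 1 was called higher, a share below that of all genes tested.

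The macrophage, stellate cell and biliary sums were highest in CCl4 replicate 3, where the replication members were lowest among the CCl4 livers. Spp1 made up 302.9 of the 335.2 CPM of the biliary sum in that library. Single markers differed: Lyz2, Lum and Epcam were highest there among the CCl4 libraries, while Cd68, Itgam, Col1a1, Acta2, Krt7 and Sox9 were lowest. Endothelial markers had 1 rise and 1 fall among 8, each a share below that of all genes tested. Hepatocyte markers had 1 rise and 3 falls among 8. Of 4 tested erythroid precursor markers, Tfrc rose and Alas2 fell. Which cells carried the replication transcripts was not measured, and the part of cell makeup in the changes was not tested. In bulk RNA of this kind, a different number of cells of a type and a different amount of RNA per cell cannot be told apart.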

How the data were processed

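Per the labels' protocols, total RNA was taken from liver with a spin-column kit and made into libraries with a messenger RNA kit. The authors filtered reads and aligned them with HISAT2, per the design text of the series, and per the submitters' processing notes they counted reads per gene with featureCounts. No source used here gives versions, genome build, annotation or strand setting. The deposited values are raw counts, with totals of 18929972 to 20042731 per library, and depth sets the precision of members with few counts.

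Symbols and exon lengths came from GENCODE M21 by Ensembl identifier, which named 52083 of 55359 identifiers. Rows without an Ensembl identifier held 0.543 to 0.679% of the counts and entered the fit. Counts were fitted in R 4.3.3 with edgeR 4.0.16 (filterByExpr, TMM, robust glmQLFit, glmQLFTest), and p-values were adjusted by the Benjamini-Hochberg method over 15579 genes. The threshold was 0.05. On simulated data the fit recovered 33.3% of the genes given a log2 change of 0.5, 87.7% at 1 and 100% at 2. It made 6 false calls among 14890 unchanged genes. A gene not called may thus still differ by a small amount. CPM are relative to TMM-scaled library size, and per-kilobase levels divide them by the merged length of all annotated exons of a gene. The SE of a log2 fold change is its size over the root of F. Ratios of counts were compared by an exact permutation test. Alternatives were other scalings, other filters, DESeq2 1.42.0, limma 3.58.1 voom, a minimum fold change of 1.5, a replicate block and leaving out each library. Every pair of libraries within a group differed beyond counting noise, with 5.72 to 25.9 as chi-square per gene.

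Members and lists were chosen with earlier results of these data known, and the list of mitotic genes was added after the counts were seen. The text names every member. It gives values per library for each member not called, each member of a role group of 4 or fewer, and the largest and smallest fold change and highest level of a role group. Mcm5, Mcm6 and Rbl1 were added after their values were seen, as were Cdc7, Chtf18, Gins4, Orc2, Orc3, Orc4 and the E2F genes not called. From the other pathway lists it names the 3 largest called rises and falls, with Gmnn, Top2a, Dnmt1, E2f1, Rb1, Ccne1, Ccne2 and Rrm2b whatever their result. The hepatocyte marker Tf was not matched by symbol.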

Additional observations from a re-analysis of the deposited data

How the results depend on the processing

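Across 16 other settings, 11 members were called higher in every one (Mcm2 to Mcm6, Gins2, Pole, Lig1, Rrm1, Rrm2 and Uhrf1), and 15 in all but the test against a minimum fold change of 1.5. That test called 12 members, 4 genes of other replication machinery, 0 of nucleotide metabolism, 2 of chromatin assembly and 5 of the E2F and RB list, against 21, 14, 8, 4 and 9 without the minimum. With library size alone, 7 genes of chromatin assembly were called. Leaving out 1 library at a time gave 16 to 25 members higher, and 5 to 9 genes of nucleotide metabolism. DESeq2 called 18 members higher and voom 20. Upper quartile scaling called 24, with Cdc45, Pole2 and Rfc5 added, and library size alone 25, with Mcm7 added as well. The summed level was 1.62 times higher without Mcm10, a setting added after seeing the data, as was leaving out the 20 most abundant genes, which kept 21 members. With the replicate number as a block, 20 members were called, since Tk1 was lost (adjusted p = 0.0629). Deviations of same-numbered libraries correlated at 0.062, 0.019 and 0.091, so the numbers were not taken to pair the libraries. Scaling by upper quartile or library size alone also ended the falls of Pola2, Orc5, Rnaseh2c, Supt16 and Rb1, and library size alone that of Shmt2. None of the called members and called pathway genes named by rule changed direction in these settings. The block gave 4 falls in nucleotide metabolism, against 2. Depth limited Orc1 and Fen1, with 3 to 20 counts a library.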
